A study of Macaca mulatta with 2 samples.

Results

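Retinoic acid is made, moved and destroyed inside the testis by a small set of proteins, and 9 of their genes are described here. They are the retinol uptake receptor STRA6, the retinol dehydrogenase RDH10, the retinaldehyde dehydrogenases ALDH1A1, ALDH1A2 and ALDH1A3, the retinoic acid hydroxylases CYP26A1 and CYP26B1, and the binding proteins CRABP1 and CRABP2. Members were taken as every non-control probe whose gene name on the array was 1 of these symbols, which gave 18 probes for 9 of the 21509 gene names on the array. Signal came from 2 one-colour arrays, 1 for a pubertal and 1 for an infant primary culture of Sertoli cells from the rhesus monkey, Macaca mulatta. The infant culture came from males younger than 3 months. The pubertal culture came from males of 18 to 22 months, in which catheter pulses of gonadotropin-releasing hormone (GnRH; 0.15 µg/min during 2 min, repeated each 3 h, for 4 to 5 weeks) had brought on puberty. Hormone treatment was the same for both cultures, FSH (follicle-stimulating hormone) at 5 ng/ml together with testosterone at 100 nM for 12 h, so no untreated control is included. The sources used here do not state how many animals supplied each culture. With 1 array per group there is no replicate and no test, and age, GnRH, animal and culture cannot be told apart.

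Vitamin A reaches cells as retinol bound to a plasma carrier, and STRA6 lets it in. RDH10 oxidises retinol to retinaldehyde, ALDH1A enzymes oxidise that irreversibly to retinoic acid, and CYP26 enzymes hydroxylate retinoic acid for removal. Retinoic acid acts through nuclear receptors, and in the testis it drives spermatogonia to differentiate and germ cells to enter meiosis. Sertoli cells are known as a source of it, and CYP26B1 is known for keeping it away from germ cells of the fetal testis.

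Values are processed signals in intensity units, as the scanner software wrote them. Differences are pubertal minus infant on the log2 scale, after each signal was divided by its array's 75th percentile (407 intensity units on the pubertal array, 382 on the infant one). The error beside a difference is the scanner software's own estimate. It does not cover the culture, and precision is limited by having so few arrays. For bright probes it was close to a fixed share of the signal, so ALDH1A1, ALDH1A3 and CYP26B1 all have 0.20. The median error of all measured genes was 0.20 as well. It therefore serves here as a nominal yardstick and not as a measured spread. Repeated spots of 78 probes had a median standard deviation of 0.088 (pubertal) and 0.081 (infant). A probe counted as measured where it was well above background. About as many gene spots passed on the pubertal (54.9%) as on the infant array (54.8%), and no gene spot was saturated. The probes are human sequences to which monkey RNA had to bind, so signals of different probes are not comparable as levels. All 9 symbols also name genes in the macaque gene tables. No member spot lay in an area of the slide counted as disturbed, and the median difference of the spots around each member spot lay between -0.22 and 0.18.

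Of the 9 genes, 7 were measured on both arrays, ALDH1A2 on the pubertal array alone and CRABP2 on the infant array alone. CYP26B1 and ALDH1A1 were more than 4-fold higher on the pubertal array. CYP26A1 and CRABP1 were higher by less than 2-fold, ALDH1A3 was 2.04-fold lower, and RDH10 and STRA6 were lower by less than 2-fold. Higher by 2-fold or more were 2 of 7 members, against 7.32% of the 14243 genes measured on both arrays. Lower by 2-fold or more was 1 of 7, against 6.32% of those genes. The same shares of all genes belong beside the 2-fold counts of every list below. Detection on the pubertal array alone applied to 4.2% of gene names on the array, and on the infant array alone to 3.13%. The median difference of the 7 members was 0.58, and that of all measured genes -0.06. Since 7 genes are few, these shares describe the members and no more. Scaling on the array median lowers every difference by 0.16, and scaling on the spike-in control probes raises every difference by 0.98. On the spike-in scale RDH10 (0.06) and STRA6 (0.39) lie above 0 and ALDH1A3 lies at -0.04. Directions below hold for the scale set by the 75th percentile.

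**Figure D1:**
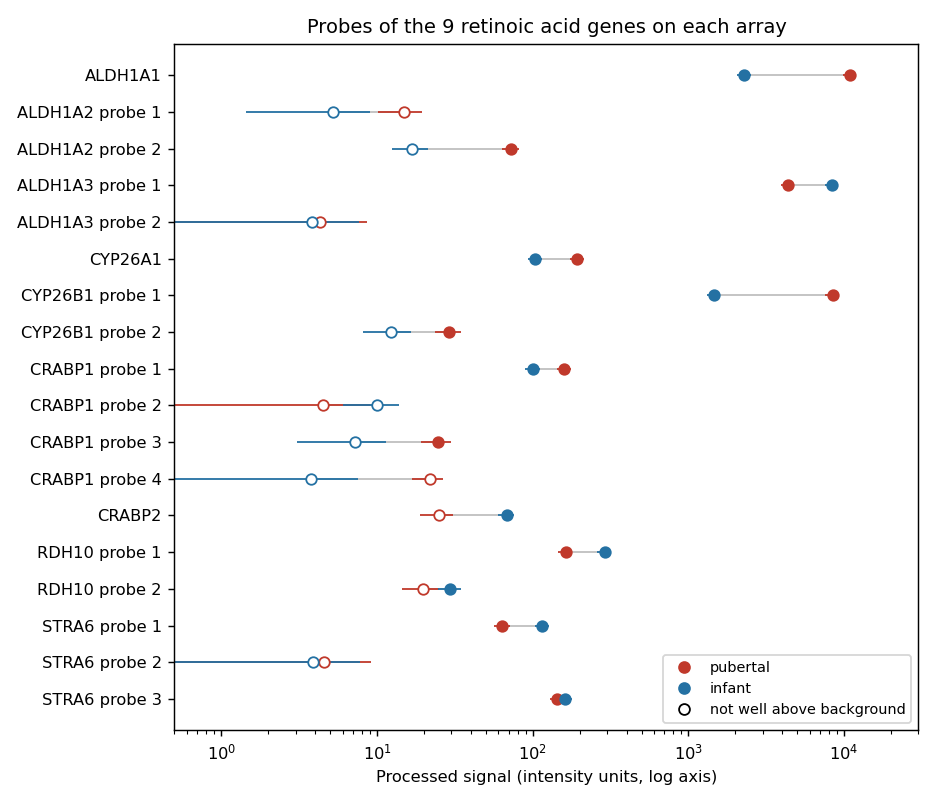
Processed signal of each of the 18 probes on the pubertal and the infant array, in intensity units on a log axis. Bars are the scanner software's error, a bar that reaches the left edge goes on to or below 0, and open circles were not well above background. Of the probes measured on both arrays, those of ALDH1A1 (10896 against 2289) and CYP26B1 (8424 against 1456) stand farthest apart toward the pubertal array, and that of ALDH1A3 (4345 against 8324) lies the other way.

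The genes of uptake and of the first oxidation step were lower in the pubertal culture by less than 2-fold on the scale of the 75th percentile, and above 0 on that of the spike-ins. STRA6 had 3 probes. The first gave 63.8 intensity units in the pubertal and 115 in the infant culture, a difference of -0.94 ± 0.23 (scanner error). The probe at the 3′ end of a further pair gave 144 and 161, a difference of -0.26 ± 0.21. The remaining probe, which shares 15 bases with the latter, was not well above background in either culture (4.6 and 3.9). The mean of the probes measured on both was -0.60 ± 0.16. They differed from each other by 0.69, with an error of 0.31 on that gap, so the size of the STRA6 difference depends on the probe, while both lay below 0 on this scale.

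RDH10, the enzyme that starts the conversion of retinol, gave 162 intensity units in the pubertal and 289.5 in the infant culture with its brighter probe. The difference was -0.92 ± 0.21, a 1.90-fold lower signal. Its dim probe was well above background on the infant array alone, at 29.5 against 19.8, a bound of 1.51-fold lower in the pubertal culture. No scanner error is taken off such bounds, and the log2 difference of this probe was -0.67 ± 0.45. Both RDH10 probes thus had the lower signal in the pubertal culture. The brighter one lay below the infant value by less than 2-fold and turned to 0.06 with spike-in scaling.

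Of the ALDH1A enzymes, which make retinoic acid, ALDH1A1 and ALDH1A2 had higher signals in the pubertal culture and ALDH1A3 a lower one. ALDH1A1 had a single probe. It gave 10896 intensity units in the pubertal and 2289 in the infant culture, and the raw spot was 340 times as bright as its local background on the first and 69.9 times on the second. The difference of 2.16 ± 0.20, or 4.47-fold, exceeded that of 98.6% of the measured genes. Neither spot was near the limit of detection. The difference ran from 2.00 to 2.29 over the processing alternatives other than spike-in scaling, which gave 3.15.
The probe sequence of ALDH1A1 is given because it carries that difference alone, and 1 of ALDH1A2 for contrast. Both are designed human 60-base sequences printed 5′ to 3′ as the array files list them, with no part marked.
ALDH1A1: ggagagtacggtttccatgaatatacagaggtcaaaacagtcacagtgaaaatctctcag
ALDH1A2: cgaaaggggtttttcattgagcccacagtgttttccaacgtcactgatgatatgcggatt

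The printed ALDH1A2 probe was not well above background in either culture, at 14.9 intensity units in the pubertal and 5.22 in the infant culture. Its other probe gave 72.5 on the pubertal array, which was well above background, and 16.8 on the other, which was not. ALDH1A2 therefore got a bound of 3.67-fold higher in the pubertal culture, set against the lowest signal measured above background on the infant array. The log2 difference of that probe was 2.02 ± 0.41. Both probes were brighter in the pubertal culture, but only 1 of the 4 spots counted as measured. In the mouse ALDH1A2 is known from germ cells. The 18 germ cell markers listed for this study had a summed signal of 16.4 times the 75th percentile in the pubertal and 4.88 times in the infant culture, over the 9 measured on both. Most of the infant sum came from UTF1, which differed by 0.24. All 9 had positive differences, 7 of them by at least 2-fold, and a further 5 were measured on the pubertal array alone. GFRA1, STRA8, SPO11 and PIWIL1 were not well above background in either culture. The 3 germ cell markers with the brightest single probe on either array, a rank of spots and not of levels by which markers of every cell type are named here, were UTF1 (0.24), DAZL (4.72) and ID4 (3.31). In RNA of a whole culture, more cells of a type and more RNA per cell cannot be told apart. Their part in the ALDH1A2 and ALDH1A1 signals was not tested.

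ALDH1A3 gave 4345 intensity units in the pubertal and 8324 in the infant culture with its bright probe, a difference of -1.03 ± 0.20. A second probe, designed on another transcript record, was not well above background in either culture (4.27 and 3.81). The difference lies within its error of the 2-fold limit. It was smaller than 2-fold with quantile normalization (-0.90), loess normalization (-0.89) and the percentile over detected probes (-0.96), and was -0.47 when the dim probe was averaged in. ALDH1A1 and ALDH1A3 stood apart by 3.19 ± 0.29 on the log2 scale, a gap in which any shift common to all probes of an array cancels. Over all 12 settings that recompute it the gap lay between 2.64 and 3.19. Scaling by median, spike-ins or detected probes leaves this and every later gap unchanged by construction. The weaker flag, the brightest probe and leaving out disturbed areas kept the same probes here. Agreement among those settings is therefore no support. On these 2 arrays the change was unequal for these enzymes of the same step, by more than the scanner error. That error is nominal for probes this bright.

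**Figure D2:**
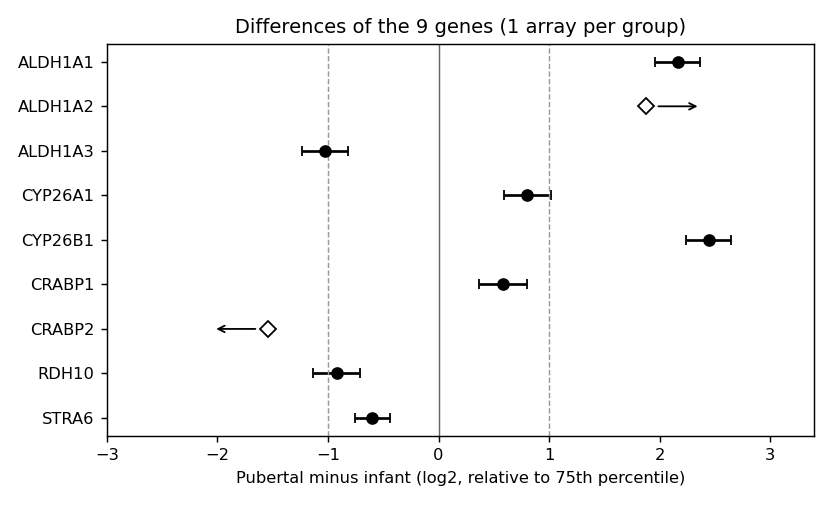
Difference of each gene, pubertal minus infant on the log2 scale after scaling to the 75th percentile, with 1 array per group. Bars are the scanner software's error, and dashed lines mark 2-fold. Diamonds with arrows are bounds for genes measured on 1 array, with no scanner error taken off. CYP26B1 (2.44) and ALDH1A1 (2.16) lie beyond 2-fold toward the pubertal array.

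The CYP26 enzymes, which remove retinoic acid, were higher on the pubertal array where both arrays measured them. CYP26B1 had the largest difference of the 7 genes measured on both arrays. Its bright probe gave 8424 intensity units in the pubertal and 1456 in the infant culture, a difference of 2.44 ± 0.20 or 5.44-fold, beyond that of 99.0% of the measured genes. The second CYP26B1 probe was dim. It passed on the pubertal array alone, with 29.2 against 12.3, a bound of 1.48-fold (log2 difference 1.16 ± 0.56). Averaging both probes, as happens with no filter on dim probes, lowered the CYP26B1 difference to 1.80. Both probes thus pointed toward the pubertal culture, and the size rests on the bright one.

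In the mouse testis CYP26B1 is known from the peritubular muscle cells that surround the tubules. Of 10 listed markers of those cells 9 were measured on both arrays, 6 of them higher in the pubertal culture by 2-fold or more and none 2-fold lower, while PTCH1 was measured on neither. The median difference of the list was 1.15. The summed signal of the 9 was 188 times the 75th percentile in the pubertal and 119 times in the infant culture. That is a ratio of 1.58, in which bright probes weigh most. The 3 with the brightest single probe were calponin CNN1, which differed by 0.62, the actin-binding protein TAGLN (1.07) and the myosin kinase MYLK (1.57). The other way lay the leiomodin LMOD1 (-0.85), at 7779 intensity units in the pubertal and 13190 in the infant culture, named here after its values were seen. It was the only 1 of the 9 with a negative difference. The largest differences of the list, likewise named after their values were seen, were those of ACTA2 (3.46), ACTG2 (3.10) and MYH11 (2.24). The part of such cells in the CYP26B1 signal was not tested.

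CYP26A1, a hydroxylase whose gene is itself switched on by retinoic acid in many tissues, gave 192 intensity units in the pubertal and 104 in the infant culture. Its difference was 0.80 ± 0.21, or 1.75-fold, and ranged from 0.52 with normexp background correction to 1.79 with spike-in scaling. Relative to CYP26A1, CYP26B1 differed by a further 1.64 ± 0.30, which lay between 1.00 and 1.92 over the 12 settings. CYP26C1, the third hydroxylase and the neighbour of CYP26A1 in the macaque annotation, is no member. It has 2 spots and was measured on the infant array alone, where the brighter signal was 53.7 against 24.6 intensity units. Its bound of 2.32-fold brighter there equals the plain difference, with no scanner error taken off. By these signals the neighbours were brighter in different cultures. CYP26B1 and ALDH1A1, on the other hand, differed by amounts that lay 0.28 ± 0.29 apart, within the nominal scanner error. Over the settings this gap lay between -0.36 and 0.33. With a nominal error, that does not show that both changed alike.

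Of the cellular binding proteins, CRABP1 had the higher signal in the pubertal and CRABP2 in the infant culture. CRABP1, which holds retinoic acid in the cytoplasm, had 4 probes, and 1 of them was measured on both arrays. It gave 159.9 intensity units in the pubertal and 100.4 in the infant culture, a difference of 0.58 ± 0.22. The difference ranged from 0.35 with normexp background correction to 1.57 with spike-in scaling, and it passed 2-fold with the weaker detection flag and with the median of all probes (1.13 in each). Another CRABP1 probe passed on the pubertal array alone, at 24.6 against 7.23, a bound of 1.25-fold (log2 difference 1.68 ± 0.89). A probe that shares 59 of its bases with it, shifted by 1 base, was below the limit on both arrays at 21.8 and 3.74. The last one, built on another transcript record, gave 4.50 and 9.97, both below the limit, and was the only CRABP1 probe with the brighter spot on the infant array. CRABP1 is known from spermatogonia. Of the listed germ cell markers known from those cells, a subset formed after the values were seen, UTF1 differed by 0.24, ZBTB16 by 0.98 and ID4 by 3.31. MAGEA4, KIT and SALL4 were measured on the pubertal array alone and GFRA1 on neither. The part of such cells in the CRABP1 signal was not tested.

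CRABP2, which hands retinoic acid to its receptor, had 1 probe. It was well above background on the infant array, at 68.1 intensity units, and not on the pubertal array, at 24.8. CRABP2 thus got a bound of 2.92-fold lower in the pubertal culture, which equals its log2 difference of -1.54 ± 0.39. Both signals were near the lower end of what was measured, the raw spots being 3.53 and 2.06 times their local background. Setting the spike-in scale in place of the 75th percentile would raise this difference, as all others, by 0.98.

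**Figure D3:**
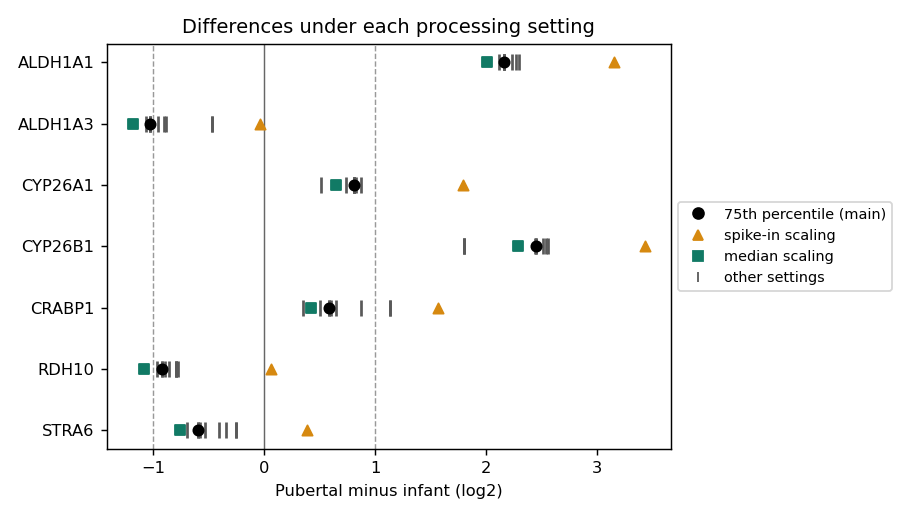
Difference of each of the 7 genes measured on both arrays under 12 settings that recompute it, on the log2 scale. Circles are the main setting, triangles spike-in scaling, squares median scaling, and ticks the other settings. ALDH1A1 and CYP26B1 stay above 1 in all of them, while RDH10 and STRA6 pass 0 with spike-in scaling.

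Among 41 other genes of retinoid metabolism, 21 were measured on both arrays. Of these 3 were higher in the pubertal culture by 2-fold or more and 4 lower, against 7.32% and 6.32% of all genes. The median difference of the list was -0.34. Higher were RBP7 (2.50), a small retinol-binding protein measured at 166 against 27.6 intensity units, RDH5 (1.20), a dehydrogenase of the visual cycle, and RARRES1 (1.35), a retinoid-induced gene. Lower were AKR1B10 (-3.55), a reductase that turns retinaldehyde back to retinol, and CYP1B1 (-2.22), a hydroxylase that can also oxidise retinol. SCARB1, a lipoprotein receptor (-1.25), and the retinal reductase DHRS4 (-1.26) were also lower by more than 2-fold. RBP7 came to 1.21 with normexp background correction, SCARB1 to -0.98, and AKR1B10 to -1.96 with the brightest of its probes alone. The reductase DHRS3, which lowers retinaldehyde and is induced by retinoic acid, was higher by 0.97, at 165 against 78.9 intensity units. The plasma carrier RBP4 was measured on the pubertal array alone, with a bound of 2.34-fold. LRAT, which stores retinol as ester, was measured on the infant array alone, as were RLBP1 and RDH16, with bounds no larger than 1.24-fold. Neither array measured 14 genes of the list, among them LRP2 and the alcohol dehydrogenases ADH1A, ADH1B, ADH1C, ADH4 and ADH7, and BCO2 was not found on the array.

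The receptors through which retinoic acid acts had small differences as gene means. Of 14 receptor and cofactor genes 10 were measured on both arrays, none at least 2-fold different as a gene mean, with a median of -0.19. For 10 genes that is near the shares of all genes, 7.32% higher and 6.32% lower. RARA, with 2 probes, differed by 0.04 ± 0.14, RARG by -0.21, RXRA by -0.20 and RXRB by -0.24. Of these the brightest probe alone gave -0.19 for RARA, 0.18 for RARG and 0.64 for RXRA, so that their signs depend on the probe. Each of these genes has 2 probes, which lay on opposite sides of 0. Their small means therefore do not show that each probe differed little. RARB, itself a target, and RXRG were not well above background in either culture, at 4.56 and 4.00 intensity units for RARB and 11.9 and 6.62 for RXRG. The largest differences in the list were those of the corepressor NCOR1 (-0.61), the coactivator NCOA1 (0.55) and the nuclear receptor PPARD (-0.36).

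Of 32 genes known to respond to retinoic acid, 22 were measured on both arrays. Of these 4 lay 2-fold or more above and 4 below the infant signal, against 7.32% and 6.32% of all genes. The median difference of the list was -0.12. CYP26A1, DHRS3 and RARRES1, named above, are counted here again. Beside RARRES1 the higher ones were TBX1 (3.81), a T-box factor with 895 intensity units in the pubertal and 60.2 in the infant culture, RARRES2 (3.46), which encodes chemerin, at 1622 against 139, and HOXA4 (1.54). Lower were CEBPE (-2.18), the transglutaminase TGM2 (-1.96), the orphan receptor NR2F1 (-1.15) and the adhesion molecule ICAM1 (-1.07). Normexp background correction gave 0.55 for HOXA4, -0.99 for TGM2 and -0.91 for ICAM1, all under 2-fold, and 1.95 came out for TBX1 with no filter on dim probes. ADRA1B was measured on the pubertal array alone, with a bound of 3.92-fold. STRA8, the meiosis gatekeeper that retinoic acid induces in germ cells, was not well above background in either culture (4.48 and 3.91 intensity units). Neither were HOXB1, FOXA1, RARB and GPRC5A. Of the list, BHLHE40 was not found on the array. Large differences thus occurred in both directions.

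**Figure D4:**
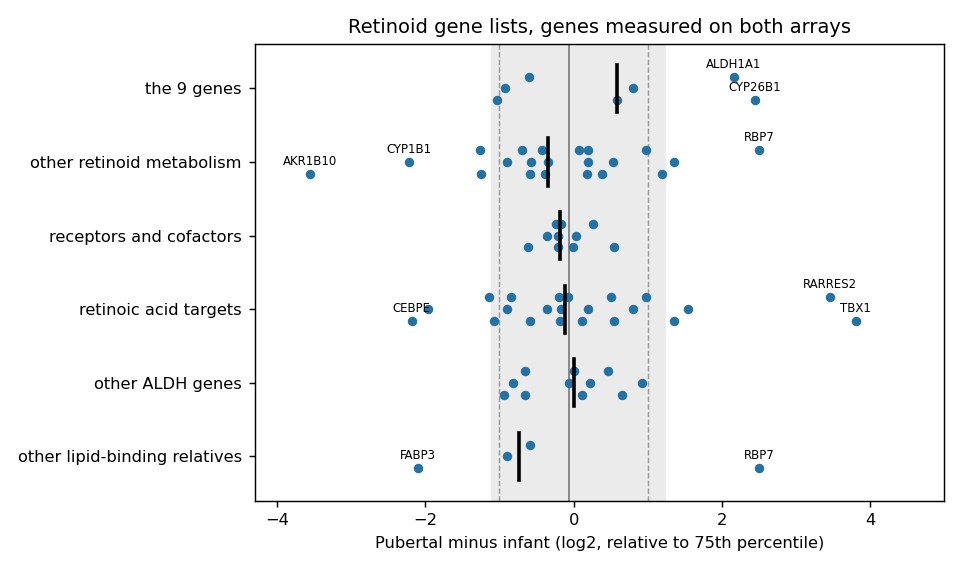
Differences of the genes measured on both arrays in each list, pubertal minus infant on the log2 scale, with the list median as a black bar. The grey band spans the 5th to 95th percentile of all measured genes (-1.10 to 1.23), the grey line their median (-0.06), and genes beyond 4-fold are named. ALDH1A1, CYP26B1, RBP7, RARRES2 and TBX1 lie more than 4-fold toward the pubertal side.

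Relatives of the members by sequence family were compared as well. None of the 11 other aldehyde dehydrogenase genes measured on both arrays differed by 2-fold. For so few genes that is near the shares of all genes, 7.32% higher and 6.32% lower. The largest differences were those of ALDH2 (-0.94), ALDH9A1 (0.93) and ALDH3B1 (-0.82). ALDH5A1 was measured on the infant array alone, at 95.8 against 20.3 intensity units (a bound of 4.89-fold brighter there). Of the other 12 genes of the lipid-binding family to which the CRABP genes belong, 4 were measured on both arrays. Among them were RBP7, given above, FABP5 (-0.90 over 4 probes), which also carries retinoic acid, and the fatty acid carrier FABP3 (-2.09 with 1 probe). FABP1 and FABP6 were measured on the pubertal array alone, with bounds of 2.22-fold and 1.54-fold.

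The Sertoli cell label was set beside 18 listed markers, of which 17 were measured on both arrays and GATA1 on neither. This does not test which cells the cultures held. The 3 with the brightest single probe were keratin KRT18 (-1.24), transferrin TF (3.32) and clusterin CLU (0.72). By 2-fold or more 4 of the 17 were higher and 1 lower. Beside TF the higher ones, named after their values were seen, were AMH (3.28), DMRT1 (2.11) and SOX8 (1.05). Of other cell types, 7 of 10 macrophage markers were measured on both arrays and 2 on the pubertal array alone, with 4 of them 2-fold or more above the infant signal and CD74 on neither array. Their summed signal was 5.14 times the 75th percentile in the pubertal and 1.24 times in the infant culture. Those with the brightest single probe were CD163 (3.09), PTPRC (1.99) and TYROBP (1.32). The other way lay CD68 (-0.94) and ITGAM (-0.08), named after their values were seen. Of 10 endothelial markers 6 were measured on both arrays (2.74 against 1.44 times), while CDH5, KDR and TIE1 were not well above background on either. The brightest probes there were those of VWF (0.99), PECAM1 (1.43) and ENG (0.32). Of 8 Leydig cell markers 7 were measured on both (50.4 against 154.7 times), with 3 of them lower by 2-fold or more and LHCGR on neither array. The other 4 had positive differences under 2-fold, so that the median of the list was 0.087. Its brightest probes were those of STAR (-4.24), HSD3B2 (0.25) and CYP11A1 (-1.37). Most of the infant sum came from STAR, at 2158 intensity units in the pubertal and 38384 in the infant culture. Of 10 interstitial fibroblast markers 8 were measured on both (35.1 against 40.1 times), the brightest probes being those of COL1A1 (0.22), DCN (-1.49) and THY1 (0.29). The part of these cells in the members' signals was not tested.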

How the data were processed

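Per the labels, RNA of each culture was labelled with Cy3 and read on 1 array. The submitters' processing notes name Agilent Feature Extraction 10.5.1.1 as the source of the deposited intensity values. Per the file headers these were background-subtracted and spatially detrended within each array, with surrogates for low values and no scaling between arrays. Per the file headers the design is human (hg18).

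Outlier spots (96 and 91 of 51538) were left out. The log2 of the processed signal was scaled to each array's 75th percentile, spots of a probe were averaged, and genes were given the mean over those probes well above background on both arrays. A gene measured on 1 array got a bound, set against whichever was higher, the other array's lowest measured signal (-4.29 pubertal, -4.36 infant) or its own. The scanner error was not taken off these bounds. The members and lists were chosen with earlier results of these data known. Named were all members, of the other retinoid lists the genes at least 2-fold different or measured on 1 array and otherwise the 3 largest differences, of each cell type list the 3 with the brightest single probe, and 10 retinoid genes whatever their values. Further markers were named as not measured or after their values were seen. Of the list genes, 2 are not reported here by name. No gene of like pattern was named, since 2 arrays give each gene 1 difference. Alternatives were normexp (limma 3.58.1, offset 50), median, quantile, loess (span 0.3), detected-probe and spike-in scaling, other filters on dim probes, probe rules and thresholds, and leaving out disturbed areas (475 spots). The functions that average spots and probes were run on simulated data with a known shift. Scaling, outlier removal, detection on 1 array, bounds and the rule for disturbed areas were not part of that run.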

Additional observations from a re-analysis of the deposited data

How the results depend on the processing

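Results limited by 1 array per group and by dim probes were recomputed under 13 alternatives. The brightest probe of each gene and leaving out disturbed areas moved none of the counts or medians beyond its limit. Members at least 2-fold lower numbered 1, and 2 with median scaling or the weaker detection flag, 3 at a 1.5-fold threshold, and 0 with quantile, loess, detected-probe or spike-in scaling, with the median of all probes or at 4-fold. Members at least 2-fold higher numbered 2, and 4 with spike-in scaling or the weaker flag, and 3 without a filter on dim probes, with the median of all probes or at a 1.5-fold threshold. The members' median of 0.58 became 0.35 with normexp, 1.57 with spike-in scaling, and 0.80 without a filter on dim probes or with the weaker flag or the median of all probes.

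For other retinoid metabolism genes, spike-in scaling gave 10 higher, 2 lower and a median of 0.64, the 4-fold threshold 1 higher and 2 lower, and no filter a median of -0.083. For receptor genes, spike-in scaling gave 3 higher and a median of 0.80, median scaling a median of -0.35, no filter 0.017, and the 1.5-fold threshold 1 lower. For target genes, normexp gave 2 lower, spike-in scaling 10 higher, 1 lower and a median of 0.86, the 4-fold threshold 2 higher and 1 lower, no filter a median of 0.11, and the median of all probes 0.0005. The signs of these list medians therefore turn with the processing. Scaling shifts every gene by its own construction. The cause of the other changes was not tested.

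For all genes, 1042 were higher and 900 lower (53.7% higher). Normexp gave 553 and 568, spike-in scaling 6372 and 128 (98.0% higher), no filter 2081 and 1485, the weaker flag 1710 and 1363, the 1.5-fold threshold 2142 and 2392, and the 4-fold threshold 238 and 122. Median scaling gave 785 and 1305 (37.6% higher). No paired analysis was possible because each group has 1 array.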
